A study of Mus musculus with 13 samples.

Results

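The genes described here are 9 that encode secreted proteins of the extracellular matrix: Fn1, Fbn1, Tnc, Thbs1, Thbs2, Postn, Ctgf, Cyr61 and Lox. They were taken by symbol from the deposited ribosome footprint tables, which hold 22406 gene symbols, and no cut-off on a measured value was used. Earlier results of these data were known when the genes were named, so their medians and counts are descriptions only. Each symbol matched 1 row in both tables. All 9 were among the 10432 genes expressed in mouse embryonic fibroblasts (MEFs) and among the 10117 expressed in NIH3T3 cells, expressed meaning a mean TPM (transcript abundance per coding length, scaled to a fixed total in each library) that averages at least 2 over the libraries of a table.

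The study followed protein synthesis in mouse fibroblasts during endoplasmic reticulum (ER) stress by sequencing the short mRNA fragments that translating ribosomes protect. Thapsigargin (Tg) blocks the SERCA pump, empties the ER of calcium and so impairs protein folding there, and PERK (encoded by Eif2ak3) is the ER stress sensor that phosphorylates the initiation factor eIF2α. WT MEFs and PERK -/- MEFs were each profiled untreated and after 1, 2, 5 and 8 h of Tg at 1 µM, and NIH3T3 cells, a WT mouse fibroblast line, untreated and after 2 and 7 h of Tg at 200 nM. The 13 libraries thus gave 10 comparisons of a Tg library with the control of its own genotype or line, with 1 library per condition. No value below has a replicate error, and no test between conditions was made. Comparisons within a genotype or line share their control library. Only 1 line of each genotype was profiled, so the effect of PERK loss and any other difference between the lines cannot be told apart. How the MEF lines were derived is not given in the sources used here.

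Matrix proteins are made on ribosomes docked at the ER, enter its lumen through an N-terminal signal sequence, and are folded, disulfide-bonded and often glycosylated there before secretion. Fibronectin and fibrillin-1 build fibres. The matricellular proteins, tenascin-C, the thrombospondins, periostin and the CCN proteins CTGF and CYR61, bind those fibres, growth factors and cell-surface receptors and tune adhesion. Lysyl oxidase cross-links collagen and elastin outside the cell. In fibroblasts, TGF-beta signalling and the YAP-TEAD and SRF transcription factors are well-known activators of several of these genes.

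What the 9 coding sequences share is a hydrophobic stretch at the start. In the mouse reference annotation, the most hydrophobic window of 8 residues within the first 30 had a mean Kyte-Doolittle hydropathy between 2.64 for Lox and 3.44 for Fn1. The coding starts of 5 genes are shown, with the codons of that window in capitals, because they display this shared ER entry signal and because they hold 2 pairs of relatives, Thbs1 with Thbs2 and Ctgf with Cyr61. Coordinates are on GRCm38 (mm10), and each sequence reads 5′ to 3′ on the coding strand from the start codon, within the first coding exon.
Fbn1, chr2:125505514-125505603, minus strand: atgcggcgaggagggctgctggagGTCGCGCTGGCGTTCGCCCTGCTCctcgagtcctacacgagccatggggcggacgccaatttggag
Thbs1, chr2:118112643-118112708, plus strand: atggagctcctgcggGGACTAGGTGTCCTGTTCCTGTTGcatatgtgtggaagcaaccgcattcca
Thbs2, chr17:14691364-14691414, minus strand: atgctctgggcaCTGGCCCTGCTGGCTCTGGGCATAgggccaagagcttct
Ctgf, chr10:24595726-24595788, plus strand: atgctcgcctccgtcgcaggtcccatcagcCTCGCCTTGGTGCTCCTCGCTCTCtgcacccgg
Cyr61, chr3:145649730-145649792, minus strand: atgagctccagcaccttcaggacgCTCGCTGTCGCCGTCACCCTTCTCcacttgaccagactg

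Beyond this stretch the 9 genes differed widely. Fbn1 was the longest, with 2873 codons of which 361 encode cysteine, followed by Fn1 with 2477 codons and Tnc with 2110. Tnc held the most motifs for N-linked glycosylation (20), and Ctgf and Cyr61 held 0. Cysteine made up 12.6% of the Fbn1 codons, 11.2% of those of Ctgf and 38 of the 379 codons of Cyr61, but 1.43% of those of Postn. Translated Thbs1 and Thbs2 were 63.0% identical over 1160 aligned residues and their longest shared coding run was 26 bases, within the footprint length of 22 to 34 nt. For Ctgf and Cyr61 the identity was 52.6% over 342 residues and the longest shared run 18 bases, shorter than any footprint kept.

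The libraries held between 2525029 and 14799515 expected counts, with the WT 2 h, NIH3T3 2 h and WT 1 h libraries the shallowest. Counts of the 9 genes ran from 28 for Postn in NIH3T3 cells at 2 h to 60606 for Fn1 in untreated WT MEFs. Eif2ak3 footprints were fewer in PERK -/- than in WT MEFs at every matched time (in CPM, 8.99 against 14.4 at 1 h and 19.1 against 32.7 at 8 h) but were not at 0 in any library. All 13 fibroblast markers examined had footprints in MEFs and 11 of 13 in NIH3T3 cells, where Dcn and Fap were at 0. Their summed TPM was 5561 to 6049 in WT MEFs, 4786 to 7063 in PERK -/- MEFs and 5371 to 9016 in NIH3T3 cells. Summed TPM of epithelial, endothelial, leukocyte and muscle markers did not exceed 44.9 in any library, and that of glial and neuronal markers reached 146 in WT MEFs, nearly all of it Tubb3 (up to 143). The part of other cell types in the results was not tested, and fewer cells of a type and fewer footprints per cell cannot be told apart in such bulk samples. Nor can less mRNA and less translation per mRNA be told apart from footprints alone.

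Before any Tg, the genotypes already differed in most of the 9 genes. In TPM, which is scaled per coding length and per library, untreated PERK -/- MEFs held 3.71-fold more Thbs2, 2.46-fold more Lox, 2.07-fold more Thbs1 and 1.68-fold more Fbn1 footprints than untreated WT MEFs. Tnc and Ctgf went the other way and were 2.60-fold and 2.38-fold higher in WT MEFs. Fn1, Postn and Cyr61 were within 1.29-fold of each other. In untreated WT MEFs the order by TPM was Ctgf, Cyr61, Fn1, Thbs1, Tnc, Lox, Postn, Fbn1 and Thbs2. Ctgf (1058 TPM) and Cyr61 (1045 TPM) lay close together there, whereas in untreated PERK -/- MEFs Thbs1 (1133 TPM), Lox (838 TPM) and Cyr61 (813 TPM) led. NIH3T3 cells had a different profile, in a table normalised separately from that of the MEFs. Lox was their 21st gene by TPM and stood 9.59-fold above its level in untreated WT MEFs, while Postn was 37.7-fold, Tnc 7.55-fold and Fbn1 7.39-fold lower than there.

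**Figure D1:**
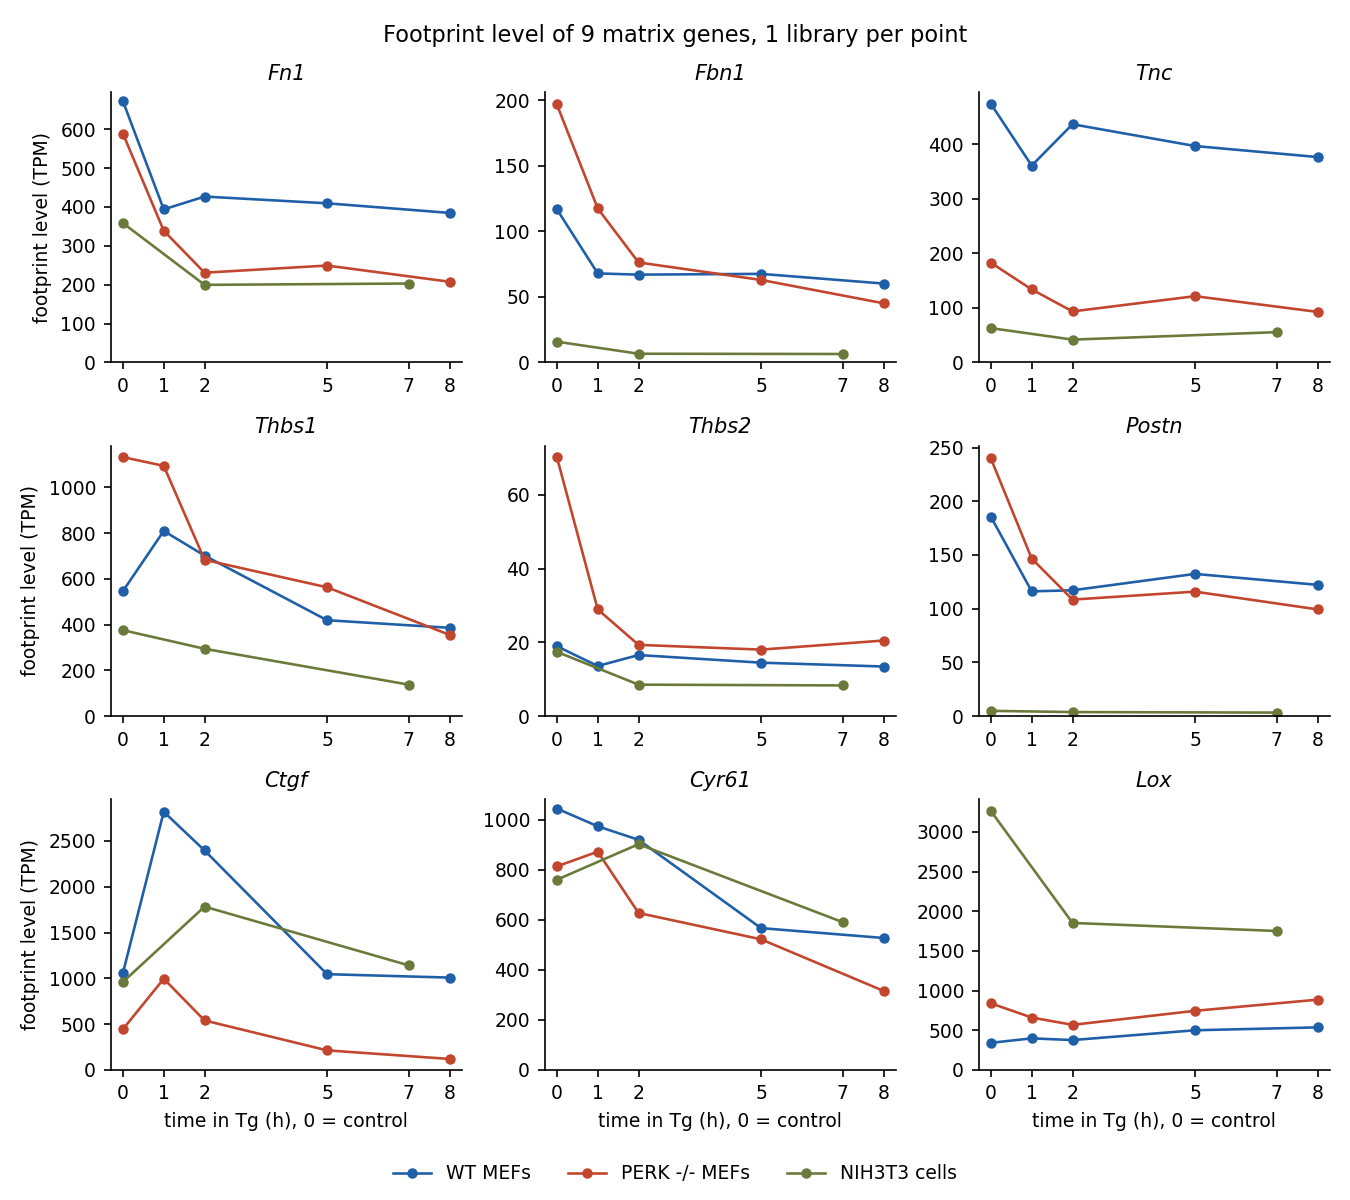
Footprint level in TPM (vertical axes, linear from 0) against time in Tg in hours (horizontal axes, 0 is the untreated control) for each of the 9 genes, with 1 point per library and lines joining the libraries of WT MEFs (blue), PERK -/- MEFs (red) and NIH3T3 cells (green). Ctgf rose to 2819 TPM at 1 h in WT MEFs and was back near its control at 5 h, and Fbn1 in PERK -/- MEFs descended from 197 to 45.1 TPM.

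Changes are given as the log2 ratio of the TPM in a Tg library to that in its control, after values under 4 TPM were raised to 4. Bracketed intervals are exact 95% intervals of the same ratio in counts per library total and cover counting error only. These scales share no centring, so an interval may lie beside the TPM value: the TPM change differed from the count change by -0.14 to 0.04, except for Postn in NIH3T3 cells at 7 h, where the floor of 4 TPM set it.

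Relative to all footprints of a library, the 9 genes passed 2-fold far less often in WT MEFs than in PERK -/- MEFs. In the study's polysome profiles, translation as a whole fell markedly in WT MEFs under Tg. In PERK -/- MEFs it fell only slightly, and only at 8 h. Smaller relative falls in WT MEFs therefore need not be smaller falls in the amount of protein made. Of 36 values in WT MEFs (9 genes at 4 times), 0 were at least 2-fold down and 2 at least 2-fold up, both Ctgf. Of 36 values in PERK -/- MEFs, 18 were at least 2-fold down and 1 was up. Of 18 values in NIH3T3 cells, 5 were down and 0 up. By time, 2.29% to 4.01% of all expressed genes were down in WT MEFs and 4.33% to 6.45% up. In PERK -/- MEFs 2.73% to 5.78% were down and 0.623% to 3.28% up, and in NIH3T3 cells 3.76% and 8.06% down and 5.76% and 7.01% up. The values of a gene within a line share 1 control library, so the pooled counts are not of separate events. With TMM-scaled counts the WT count of falls became 2 and that in NIH3T3 cells 3, and the NIH3T3 count of rises became 1 (Ctgf at 2 h). The count of 18 in PERK -/- MEFs kept within 1.5 times under every alternative except a 3-fold threshold, which left 7. Shares of all genes were computed for 2-fold changes in TPM only. The counts under other scalings or at 3-fold thus have no share of all genes beside them.

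By time, the count in PERK -/- MEFs as reported was larger at each later library. At 1 h, 1 of the 9 genes (Thbs2) was at least 2-fold down and 1 (Ctgf) up, where 3.38% of all expressed genes were down and 0.719% up. At 2 h, 4 were down and 0 up, against 5.78% and 0.623% of all genes. At 5 h, 6 were down and 0 up, against 4.77% and 3.26%. Of these, Thbs1 (-1.01) and Ctgf (-1.06) were under 2-fold without the GC trend, at -0.98 and -0.99. The larger count at 5 h than at 2 h was not kept there. At 8 h, 7 were down and 0 up, against 2.73% and 3.28%, the 2 others being Tnc (-0.98, just inside the threshold) and Lox (0.08). The median log2 change of the 9 genes was -0.45, -0.97, -1.05 and -1.50 at 1, 2, 5 and 8 h, while that of all expressed genes was -0.06, -0.11, 0.00 and 0.04.

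No more than 1 gene passed 2-fold at any time in WT MEFs. At 1 h, 1 of 9 genes was at least 2-fold up and 0 down, against 4.33% and 2.29% of all expressed genes. At 2 h, again 1 was up and 0 down, against 5.66% and 4.01%. The 5 h library had 0 up and 0 down, against 5.86% and 3.55%. The 8 h library likewise had 0 and 0, against 6.45% and 3.87%. The median of the 9 genes was nevertheless below that of all genes at each time, at -0.39, -0.18, -0.39 and -0.50 against 0.00, 0.00, 0.00 and 0.01. At 8 h, 8 of the 9 values were below 0, as were 41.1% of all genes. There 4.03% of expressed genes had a lower value than Cyr61, 4.36% than Fbn1 and 6.46% than Fn1. For Ctgf that share was 36.5%, and for Lox, which was above control, 84.6%. In NIH3T3 cells 2 genes were down and 0 up at 2 h, against 3.76% and 5.76% of all genes, and 3 were down and 0 up at 7 h, against 8.06% and 7.01%. The medians there were -0.59 and -0.82, and those of all genes -0.13 and 0.00. The dose and times in NIH3T3 cells differed from those in MEFs, so these values are set side by side only.

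**Figure D2:**
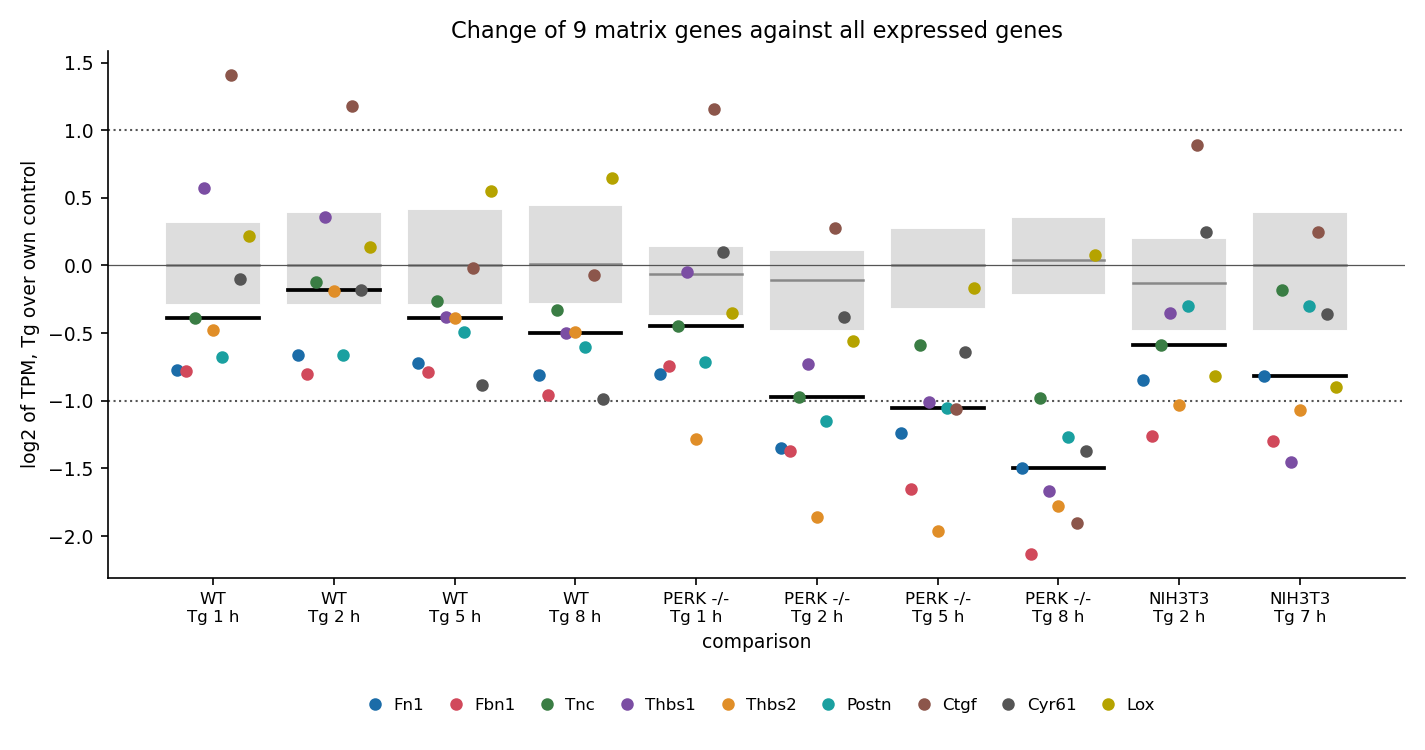
Log2 ratio of TPM in Tg to the own control (vertical axis) for the 9 genes, 1 coloured point each, in the 10 comparisons (horizontal axis). Black bars mark the median of the 9 genes, grey boxes and lines the quartiles and median of all expressed genes, and dotted lines 2-fold. The black bar is at -0.50 in WT MEFs and at -1.50 in PERK -/- MEFs at 8 h.

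Fn1 and Fbn1, the fibre-forming glycoproteins, were below control in every Tg library of all lines. Fn1 (fibronectin, which binds integrins and is assembled by cells into fibrils) was at 672 TPM in untreated WT MEFs and at 394, 427, 409 and 385 TPM after 1, 2, 5 and 8 h of Tg. In PERK -/- MEFs it was at 589 TPM untreated and at 339, 231, 249 and 208 TPM. In NIH3T3 cells it went from 358 TPM to 199 TPM at 2 h and 203 TPM at 7 h. In WT MEFs most of the decrease was thus present at 1 h and held, with log2 changes between -0.66 and -0.81. PERK -/- MEFs matched them at 1 h (-0.80) and then went further, to -1.35 at 2 h and -1.50 at 8 h (interval in counts -1.54 to -1.48), where 0.776% of expressed genes had a lower value.

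Fbn1 (fibrillin-1, the core of microfibrils, which also hold latent TGF-beta complexes) had the deepest fall of the 9. It was at 117 TPM in untreated WT MEFs and at 67.9, 66.9, 67.5 and 60.1 TPM after Tg. PERK -/- MEFs held 197 TPM untreated and then at 117, 76.2, 62.9 and 45.1 TPM. NIH3T3 cells held 15.8, 6.60 and 6.40 TPM. In WT MEFs the level was nearly the same at 1, 2 and 5 h and 0.891 of the 5 h level at 8 h, whereas in PERK -/- MEFs every later library was lower than the one before. At 8 h Fbn1 was at 0.229 of its control in PERK -/- MEFs (log2 change -2.13, interval in counts -2.17 to -2.06) and at 0.515 of its control in WT MEFs (-0.96). Untreated PERK -/- MEFs held 1.68-fold more Fbn1 than untreated WT MEFs, and at 8 h they held 0.750 of the WT level.

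Tnc (tenascin-C, a large glycoprotein of remodelling matrix that loosens cell adhesion to fibronectin) had the smallest change at 8 h among the 6 genes that were below control at all times in PERK -/- MEFs. It was at 474 TPM in untreated WT MEFs and at 361, 437, 397 and 377 TPM after Tg. The level in PERK -/- MEFs was 183 TPM untreated and at 134, 93.5, 121 and 92.7 TPM. In NIH3T3 cells it was at 62.9, 41.8 and 55.5 TPM. No value reached 2-fold as reported, and the largest change was -0.98 in PERK -/- MEFs at 8 h, which passed 2-fold with TMM (-1.01), with DESeq2 size factors (-1.01) and without the GC trend (-1.05). Tnc was higher in WT than in PERK -/- MEFs in every matched pair of libraries, by 2.60-fold untreated and 4.06-fold at 8 h.

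The 2 thrombospondins, secreted calcium-binding proteins with partly shared receptors such as CD36 and CD47, followed different courses. Thbs1, which also activates latent TGF-beta, was at 546 TPM in untreated WT MEFs and at 810, 702, 419 and 386 TPM after Tg. PERK -/- MEFs held 1133 TPM untreated and at 1094, 683, 563 and 355 TPM. NIH3T3 levels were 376, 294 and 138 TPM. WT MEFs thus stood above control at 1 and 2 h (0.57 and 0.36) and below it at 5 and 8 h (-0.38 and -0.50). PERK -/- MEFs were near control at 1 h (-0.05, turning to 0.06 with TMM), and lower at every later time, down to -1.67 at 8 h (interval in counts -1.71 to -1.65). The NIH3T3 value at 7 h, -1.45, was the lowest of the 9 genes there. Relative to WT MEFs, PERK -/- MEFs held 2.07-fold more Thbs1 untreated, 1.35-fold more at 1 h and 1.34-fold more at 5 h. WT MEFs held 1.03-fold more at 2 h and 1.09-fold more at 8 h.

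Thbs2, a paralogue linked to collagen fibril assembly, was the least abundant of the 9 in both genotypes of MEFs. It was at 18.9 TPM in untreated WT MEFs and at 13.6, 16.6, 14.5 and 13.4 TPM after Tg. The level in PERK -/- MEFs was 70.2 TPM untreated and at 28.9, 19.3, 18.0 and 20.5 TPM. NIH3T3 cells held 17.4, 8.53 and 8.32 TPM. It was the only one of the 9 genes already past 2-fold down at 1 h in PERK -/- MEFs (-1.28, interval in counts -1.36 to -1.14), and it was past that threshold at all 4 times there. In WT MEFs it stayed between -0.19 and -0.49, on 156 to 559 counts in the Tg libraries. The Tg levels of the genotypes were closer than the untreated ones, with 3.71-fold more Thbs2 in PERK -/- MEFs untreated and 1.52-fold more at 8 h. Reads from the shared run of 26 bases could have been split between Thbs1 and Thbs2 in the deposited counts.

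Postn (periostin, which binds collagen and supports its cross-linking) was below control in every Tg library of both genotypes. It was at 186 TPM in untreated WT MEFs and at 116, 117, 132 and 122 TPM after Tg. PERK -/- MEFs held 240 TPM untreated and at 147, 108, 116 and 99.4 TPM. In NIH3T3 cells it was at 4.92, 3.76 and 3.28 TPM, on 151, 28 and 50 counts. In WT MEFs the log2 change lay between -0.49 and -0.68, and in PERK -/- MEFs it was -0.71 at 1 h and between -1.05 and -1.27 afterwards. Both NIH3T3 changes (-0.30) were set by the floor of 4 TPM. In counts the change there was -0.32 (interval -0.95 to 0.27) at 2 h and -0.64 (interval -1.14 to -0.17) at 7 h.

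Ctgf and Cyr61, small cysteine-rich CCN proteins that bind integrins and are classical YAP-TEAD targets, differed in their early courses. Ctgf was at 1058 TPM in untreated WT MEFs and at 2819, 2397, 1045 and 1008 TPM after Tg. In PERK -/- MEFs it was at 444 TPM untreated and at 995, 539, 213 and 119 TPM. NIH3T3 levels were 960, 1783 and 1141 TPM. Ctgf was therefore above control in the earliest Tg library of every line, by 2.66-fold in WT MEFs at 1 h, 2.24-fold in PERK -/- MEFs at 1 h and 1.86-fold in NIH3T3 cells at 2 h. In WT MEFs it then returned to its control level, with changes of -0.02 at 5 h and -0.07 at 8 h. In PERK -/- MEFs it continued below control, to -1.06 at 5 h and -1.90 at 8 h (interval in counts -2.02 to -1.80), which is 0.268 of its control. Between 1 h and 8 h Ctgf changed by -3.06 in PERK -/- MEFs and by -1.48 in WT MEFs. WT MEFs held 2.38-fold more Ctgf than PERK -/- MEFs untreated and 8.48-fold more at 8 h.

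Cyr61, an immediate-early gene, lacked an early peak of the size seen for Ctgf. It was at 1045 TPM in untreated WT MEFs and at 974, 920, 567 and 527 TPM after Tg. PERK -/- MEFs held 813 TPM untreated and at 872, 627, 522 and 316 TPM. In NIH3T3 cells it was at 760, 902 and 590 TPM. Values within the first 2 h were close to control in all lines, between -0.38 and 0.25. At 8 h Cyr61 had the largest decrease of the 9 genes in WT MEFs (-0.99, interval in counts -1.03 to -0.94) and was at -1.37 in PERK -/- MEFs (interval -1.44 to -1.31). It was also the gene with the smallest difference between genotypes at 8 h.

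Lox (lysyl oxidase, the copper enzyme that starts collagen and elastin cross-linking) was the exception among the 9. It was at 340 TPM in untreated WT MEFs and at 397, 375, 499 and 535 TPM after Tg. The level in PERK -/- MEFs was 838 TPM untreated and at 659, 567, 744 and 885 TPM. NIH3T3 cells held 3262, 1852 and 1750 TPM. It was the only one of the 9 above control at all 4 times in WT MEFs, up to 0.65 at 8 h (interval in counts 0.60 to 0.71), and the only one not below control at 8 h in PERK -/- MEFs (0.08, interval 0.02 to 0.12), where it became -0.00 with TMM and with DESeq2 size factors. In PERK -/- MEFs it dipped to -0.56 at 2 h and came back as reported. Without the GC trend the 4 values there were -0.05, -0.14, -0.10 and 0.02, so the depth of the dip depended on that choice. In NIH3T3 cells, where its level was highest, it was below control at both times (-0.82 and -0.90). No Lox value reached 2-fold in any comparison, and removing the trend with GC content turned the small WT value at 2 h from 0.14 to -0.10 and put those at 5 and 8 h at 0.24 and 0.30.

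The courses in the genotypes were compared by the difference between the change in PERK -/- and in WT MEFs at the same time. With 1 line of each genotype, the effect of PERK loss and other differences between the lines cannot be told apart. Each difference also carries the single untreated library of each genotype, and compares levels relative to a library, not amounts of protein made. At 1 h, 7 of the 9 differences were below 0, between -0.80 for Thbs2 and 0.20 for Cyr61, and 4 counting intervals lay below 0 and 1 above. The median was -0.06 against -0.09 for all expressed genes. It turned positive with TMM, with DESeq2 size factors and without the GC trend, and between 4 and 7 genes were below 0 over the 7 alternatives. At 2, 5 and 8 h the medians were -0.70, -0.63 and -0.70, against -0.19, -0.04 and 0.00 for all genes. All 9 genes were below 0 at 2 h and at 8 h, and 8 of 9 at 5 h, the other being Cyr61 (0.24). At 2 h the Cyr61 difference of -0.19 became 0.03 with TMM, 0.04 with DESeq2 size factors and 0.20 without the GC trend, which leaves 8 of 9. The counts at 5 and 8 h held under each of the 7 alternatives of scaling, floor, depth and GC content. Over all expressed genes, 59.9%, 52.7% and 48.1% were below 0 at these 3 times. The counting intervals of the 9 differences at 8 h all lay below 0.

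Thbs2 had the largest difference of the 9 at 1, 2 and 5 h (-0.80, -1.67 and -1.57) and Ctgf at 8 h. As reported, the Ctgf difference went through -0.25, -0.90 and -1.04 to -1.83 in the 8 h library (in counts -1.84, interval -1.95 to -1.73), and 1.10% of expressed genes had a lower value at 8 h. Without the GC trend it was 0.20, -0.22, -0.64 and -1.51, so its sign at 1 h and its size at 2 h depended on that choice. Fbn1 and Thbs1 each differed by -1.17 at 8 h. Fn1, Tnc and Postn differed by -0.70, -0.65 and -0.67 at 8 h, and Lox by -0.58. The Lox difference was between -0.57 and -0.72 at all 4 times as reported, but without the GC trend it was -0.13, -0.05, -0.34 and -0.27. Since 3 of the genes with the largest differences at 8 h (Thbs2, Thbs1 and Fbn1) were also higher in untreated PERK -/- MEFs, their levels in the genotypes were closer at 8 h than before Tg. For Ctgf, which was lower in untreated PERK -/- MEFs, the levels moved apart.

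**Figure D3:**
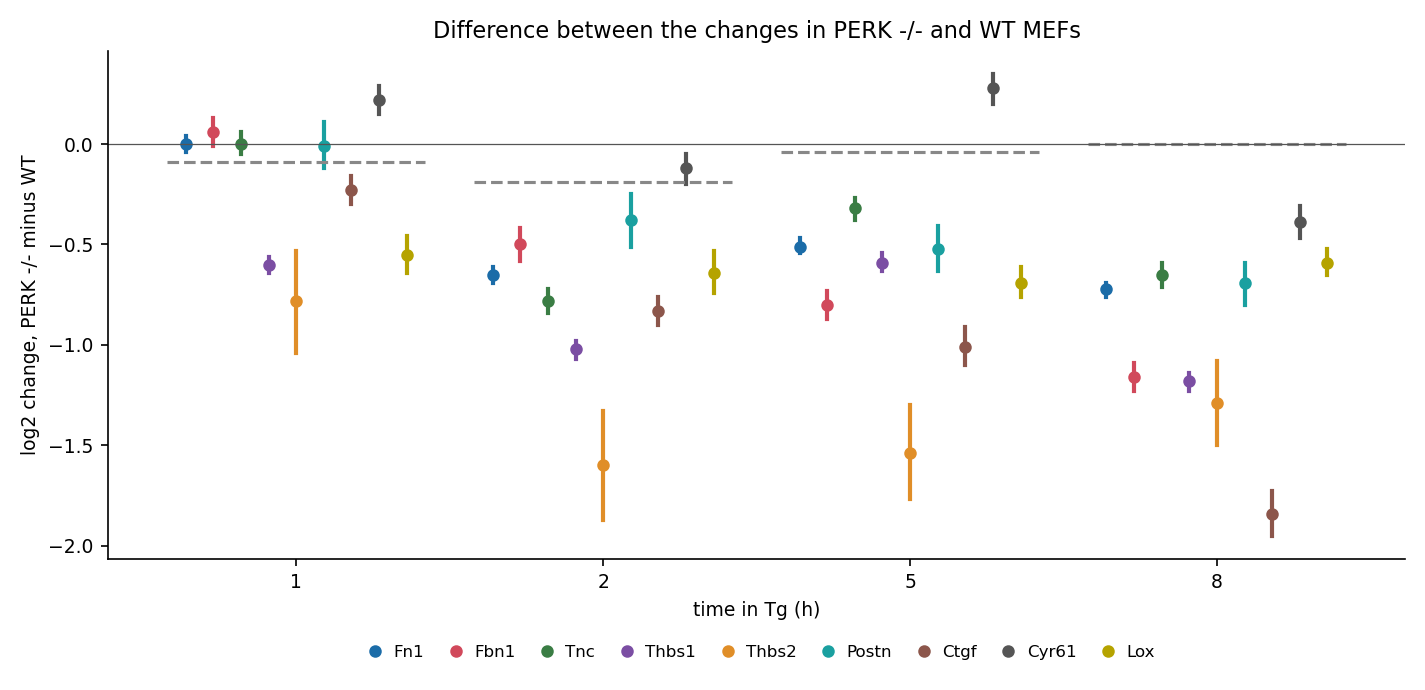
Difference between the log2 changes in PERK -/- and WT MEFs (vertical axis, in counts per library total) at 1, 2, 5 and 8 h of Tg (horizontal axis) for the 9 genes, as coloured points with 95% intervals for counting error only. Dashed lines mark the median of all expressed genes, taken from the changes in TPM and not from counts. All 9 points are below 0 at 8 h, where Ctgf is lowest (-1.84), and at 2 h, where Cyr61 was above 0 with TMM, with DESeq2 size factors and without the GC trend.

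As a sum, the 9 genes took 1.43% of all counts in untreated WT MEFs and 1.48% in untreated PERK -/- MEFs. In WT MEFs the share was 1.38% and 1.36% at 1 and 2 h and then 1.04% and 0.992% at 5 and 8 h. In PERK -/- MEFs it was 1.21%, 0.824%, 0.751% and 0.572%. In NIH3T3 cells it was 1.16% untreated, 0.967% at 2 h and 0.709% at 7 h. The genotypes thus started alike, and at 8 h the share was lower in PERK -/- MEFs (exact interval 0.566% to 0.577%) than in WT MEFs (0.986% to 0.998%). These are shares of the footprints in a library, and the total amount of translation in the cells was not part of these tables. A long coding sequence weighs more in a count share than a short one. The summed TPM, scaled per coding length, was 4457 in untreated WT MEFs and 5951 and 5457 at 1 and 2 h. The count share had no such early rise. The WT sum was then 3550 and 3413 at 5 and 8 h. In PERK -/- MEFs the sum was 4506 untreated and 4386, 2945, 2609 and 2139 after Tg.

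**Figure D4:**
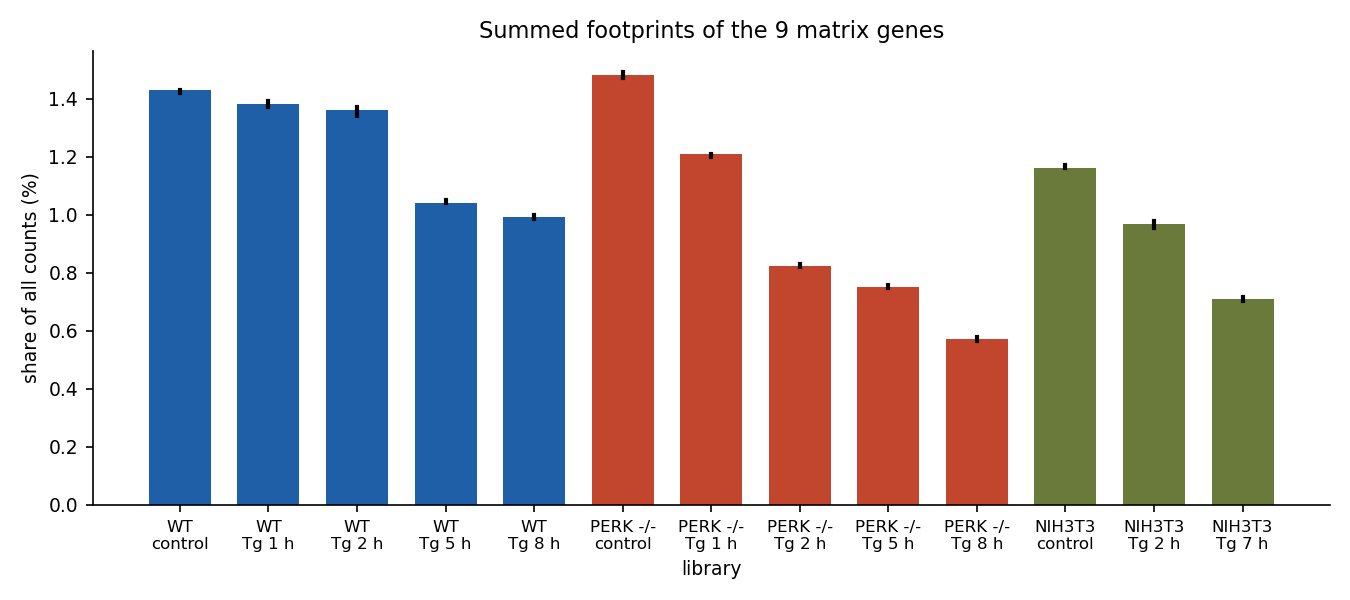
Share of all expected counts taken by the 9 genes together (vertical axis, percent) in each of the 13 libraries (horizontal axis), with bars for WT MEFs (blue), PERK -/- MEFs (red) and NIH3T3 cells (green) and black ticks for the exact 95% binomial interval. The share ends at 0.992% in WT MEFs and at 0.572% in PERK -/- MEFs at 8 h. Shares are not corrected for coding length.

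Other genes of the matrix and of its signalling were taken from 9 lists with 180 symbols, of which 149 were expressed in MEFs and 118 in NIH3T3 cells. Over the expressed genes of all lists, 18.8% were at least 2-fold down in PERK -/- MEFs at 8 h and 14.1% in WT MEFs, where 2.73% and 3.87% of all expressed genes were. At least 2-fold up were 2.01% and 10.7% of them, against 3.28% and 6.45% of all genes. The largest share in PERK -/- MEFs was 24.2%, at 2 h (5.78% of all genes), and the share in NIH3T3 cells at 7 h was 26.3% (8.06% of all genes). The counts by list below are to be read against these shares of all genes. The genes named from each list are those with its largest rise and its largest fall in WT MEFs at 8 h. Their WT values are thus extreme by choice, and their contrast with PERK -/- MEFs does not stand for the list. The median of these 149 genes in PERK -/- MEFs was -0.62 at 2 h and -0.20 at 8 h, whereas the 9 genes described here went from -0.97 to -1.50. The 2 medians thus moved in opposite directions between these libraries.

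Among the other structural proteins, 11 of 24 expressed matrix glycoproteins were at least 2-fold down and 0 up in PERK -/- MEFs at 8 h, and 3 were down and 1 up in WT MEFs. The basement membrane linker Nid1 had the largest decrease of that list in WT MEFs (-2.26) and was at -2.08 in PERK -/- MEFs. The laminin chain Lamb2 had the largest increase in WT MEFs (1.40) and was at -1.02 in PERK -/- MEFs. Of the 7 fibrillar collagen chains, 6 were at least 2-fold down in PERK -/- MEFs at 2 h but 2 at 8 h, and 0 in WT MEFs at either time. At 8 h Col5a2 was at 0.53 in WT and -0.10 in PERK -/- MEFs, and Col5a1 at -0.67 and -1.41. Of 8 expressed proteoglycans, 2 were down and 1 up in PERK -/- MEFs at 8 h and 0 in WT MEFs, with Bgn at 0.10 in WT MEFs and Agrn at -0.69 in WT and -1.49 in PERK -/- MEFs.

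The lists closest in function to the matricellular members and Lox gave smaller counts of falls than the glycoproteins in PERK -/- MEFs at 8 h, while in WT MEFs they changed in both directions. Of 13 other matricellular genes expressed in MEFs, 1 was at least 2-fold down in PERK -/- MEFs at 8 h, and in WT MEFs 1 was down and 3 up. In WT MEFs Spp1 (osteopontin) was at -1.52 and Tgfbi at 1.31, against -0.76 and 0.56 in PERK -/- MEFs. Of 19 collagen cross-linking and processing enzymes, the company of Lox, 2 were down and 1 up in PERK -/- MEFs at 8 h, and 5 down and 2 up in WT MEFs. The Lox relative Loxl4 was at 1.04 in WT MEFs and -0.31 in PERK -/- MEFs, and the procollagen protease enhancer Pcolce2 at -1.70 and -0.50. Of 20 matrix proteases and inhibitors, 2 were down in PERK -/- MEFs and 5 down and 3 up in WT MEFs at 8 h. There the inhibitor Timp3 was at -1.78 in WT and -0.01 in PERK -/- MEFs, and the protease Adamts5 at 1.34 and 0.67.

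Receptors and regulators of these genes changed in both directions in WT MEFs. Of 17 cell-surface receptors of the matrix, 6 were at least 2-fold down in PERK -/- MEFs at 8 h, and 5 down and 1 up in WT MEFs. The laminin receptor chain Itga6 was at -2.12 in WT and -1.59 in PERK -/- MEFs, and the collagen receptor Ddr2 at 1.30 and -0.07. Of 17 genes of the TGF-beta pathway, 1 was down and 1 up in PERK -/- MEFs at 8 h, and 2 down and 2 up in WT MEFs. The ligand Tgfb2 was at 1.42 in WT and 1.11 in PERK -/- MEFs, and Furin, the protease that cuts TGF-beta precursors, at -1.57 and -1.39. Of 24 genes of the YAP-TEAD and SRF pathway, 1 was down and 0 up in PERK -/- MEFs at 8 h, and 0 down and 4 up in WT MEFs. Ankrd1, a further known target of that pathway, was at -0.72 in WT and -1.61 in PERK -/- MEFs, with the factor Tead3 at 1.65 and 0.60.

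**Figure D5:**
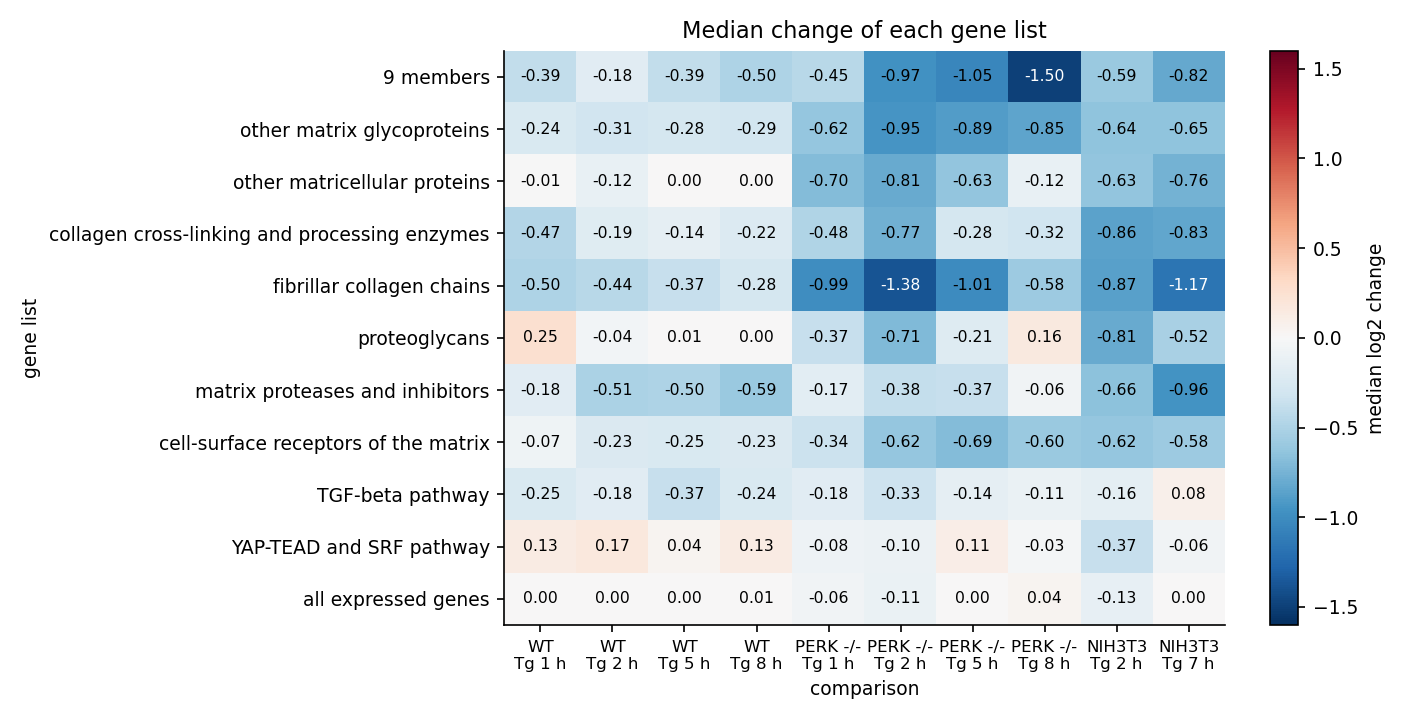
Median log2 change in TPM (colour and printed value) of the 9 genes, of 9 lists of other matrix and signalling genes and of all expressed genes (rows) in the 10 comparisons (columns). The 9 genes reach -1.50 in PERK -/- MEFs at 8 h, where fibrillar collagen chains are at -0.58 after -1.38 at 2 h.

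The genes whose 8 changes in MEFs ran most alike to those of each member were sought among 4127 other genes with at least 100 counts in every MEF library. The 8 points share 2 control libraries, and each partner was the highest of 4127 values, so Pearson's r is given as a description only. Lox was matched by Col3a1 (r = 0.996), a fibrillar collagen chain, with changes of 0.36 in WT and -0.38 in PERK -/- MEFs at 8 h. Thbs2 was matched by Tenm3 (0.992) and Fbn1 by the laminin chain Lamb1 (0.990), which was at -0.74 in WT and -1.80 in PERK -/- MEFs at 8 h. Cyr61 was matched by Inhba (0.988), Ctgf by the fibulin Fbln2 (0.986), Fn1 by Crim1 (0.980), Tnc by Pmepa1 (0.978), Thbs1 by the cytokine Csf1 (0.977) and Postn by Mycbp2 (0.967). A like shape was not a like size: Fbln2 was at -2.07 in WT and -4.17 in PERK -/- MEFs at 8 h, and Ctgf at -0.07 and -1.90.

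Since the 9 genes share a hydrophobic start, they were set beside the other expressed genes whose coding sequence has such a stretch in its first 30 codons (mean hydropathy of at least 2.2), a set defined after the data had been seen. Of these 1702 genes, 5.52% were at least 2-fold down in PERK -/- MEFs at 8 h and 7.58% in WT MEFs, against 2.01% and 3.08% of the 8541 other genes. Their medians were 0.07 and 0.00, against 0.04 and 0.04. The members' median there was -1.50 in PERK -/- MEFs. At 2 h in PERK -/- MEFs, 221 of the set were down and its median was -0.38, against 4.21% and -0.07 for the other genes.

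RefSeq promoters (GRCm38, 250 bases before to 50 after a start) were at hand for Fbn1, Tnc, Thbs2, Postn and Cyr61. The TEAD motif GGAATG, read on both strands, was found only in that of Cyr61, and 14.7% of all 32851 promoters held it. The SMAD motif CAGAC was found in a promoter of Tnc, Thbs2, Postn and Cyr61 and in 49.6% of all promoters. The CArG box, which SRF binds, was found in none of the 5 genes and in 1.63% of all promoters. A match describes the letters in these windows only.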

How the data were processed

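Ribosome footprints were prepared by the authors without cycloheximide from trypsinised, frozen cells. Per the labels and the study's methods, reads of 22 to 34 nt were filtered for rRNA and tRNA with STAR, mapped with Bowtie2 to mm10 RefSeq coding sequences clipped by 30 nt at each end, and quantified with RSEM. Tool versions are not given in the sources used here. The deposited expected counts (whole numbers, not normalised) and the deposited TPM values (scaled per coding length and per library by the authors) were used for 13 libraries, 1 per condition, each column matched to a sample by its name (0 unmatched columns). TPM under 4 was raised to 4, genes averaging at least 2 TPM over a table were kept, and a Tg library was divided by its own control, as in the study. A change of at least 2-fold was counted. The Tg doses come from the study's methods.

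Intervals are exact conditional (Clopper-Pearson) intervals of the counts per library total, or Wald intervals for a difference of 2 changes. They cover counting error only, and 3 counts correspond to 0.203 to 1.19 CPM. The script was tested on simulated data. The alternatives tried were a lower floor (1 TPM), no floor with 1 TPM added, counts per library total (pseudocount 0.5), TMM (edgeR 4.0.16), DESeq2 1.42.0 size factors, thinned counts, removal of a GC trend (lowess, fraction 0.3), a 3-fold threshold and other filters. Sequences were read from GENCODE vM21 and RefSeq tables on GRCm38. All 9 members matched a GENCODE coding sequence, and RefSeq promoters were read only for Fbn1, Tnc, Thbs2, Postn and Cyr61. Named list genes had the largest rise and fall at 8 h in WT MEFs among genes with at least 100 counts in both libraries. The members, lists and tests were chosen with earlier results of these data known. Python 3.11.15, pandas 2.3.3, scipy 1.17.1 and R 4.3.3 were used.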

Additional observations from a re-analysis of the deposited data

Results flagged for a closer look

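In 5 cases a gene's change lay on opposite sides of 0 in the 2 genotypes at the same time, counting intervals included. Each rests on 1 library per condition, and the difference was not tested. Thbs1 at 2 h was at 0.36 in WT and -0.73 in PERK -/- MEFs, a difference of -1.09. Lox was above its control in WT and below it in PERK -/- MEFs at 1 h (0.22 and -0.35, difference -0.57), at 2 h (0.14 and -0.56, difference -0.70) and at 5 h (0.55 and -0.17, difference -0.72). Cyr61 at 1 h went the other way by a small amount, at -0.10 in WT and 0.10 in PERK -/- MEFs, a difference of 0.20. Without the GC trend, Lox at 2 h was below 0 in both genotypes (-0.10 in WT and -0.14 in PERK -/- MEFs), so that the sides were no longer opposite. Its values at 1 h shrank to 0.08 in WT and -0.05 in PERK -/- MEFs.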

How the results depend on the processing

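Of 630 recomputed values of single genes, 7 changed sign, none of them from a change larger than 0.14. The largest shift in size was 0.43. Shifts could exceed the counting interval: Ctgf in PERK -/- MEFs at 2 h went from 0.28 to 0.71 without the GC trend (interval 0.30 to 0.42). Of 182 recomputed values of the 26 changes past 2-fold, 19 were under 2-fold, most of them Thbs2 in NIH3T3 cells and Thbs1 in PERK -/- MEFs at 5 h. Of the 448 recomputed values of the other changes, 14 passed 2-fold (Fbn1 and Cyr61 in WT MEFs, Tnc in PERK -/- MEFs and Ctgf in NIH3T3 cells). Of 63 recomputed differences between genotypes at each time, an alternative added after seeing the data, 12 changed sign at 1 h and 3 (Cyr61) at 2 h, with 0 among the later libraries. The medians of the 9 genes stayed below 0 in all 10 comparisons under every alternative. The median difference between genotypes at 1 h turned from -0.06 to 0.10 with TMM, 0.09 with DESeq2 size factors and 0.11 without the GC trend, and the one at 2 h moved from -0.70 to -0.44 without the GC trend. The cause was not tested. The counts that follow for other scalings or for 3-fold have no share of all genes beside them, since such shares were computed for 2-fold changes in TPM only. Falls in WT MEFs went from 0 to 2 with TMM, with DESeq2 size factors and without the GC trend. Rises in WT MEFs went from 2 to 1 without the GC trend and to 0 at 3-fold. At 3-fold, falls in PERK -/- MEFs went from 18 to 7, rises from 1 to 0 and falls in NIH3T3 cells from 5 to 0. Falls in NIH3T3 cells were 3 with a pseudocount of 1 TPM, TMM, DESeq2 size factors or no GC trend, and rises went from 0 to 1 with counts per library total, TMM, DESeq2 size factors, thinned counts or no GC trend. An alternative chosen after seeing the data kept the 5, 7 and 8 h libraries alone: rises became 0 in WT and 0 in PERK -/- MEFs, and falls 3 in NIH3T3 cells and 13 in PERK -/- MEFs. TPM put the median of all genes at -0.11 in PERK -/- MEFs at 2 h and at -0.13 in NIH3T3 cells at 2 h, and TMM at -0.02 and -0.01.

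No paired analysis was possible because each condition has 1 library and no replicate numbers are shared. Leaving out a library within a condition was likewise not run. Depth limits Postn in NIH3T3 cells most, with 28 and 50 counts after Tg.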
